A study of Mus musculus with 8 samples.

Results

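Amacrine cells are the inhibitory and modulatory interneurons of the inner retina, and their subtypes are told apart largely by the transmitter they release. The transcripts described here are the 8 genes that make or carry those transmitters, namely *Gad1*, *Gad2*, *Slc32a1*, *Slc6a9*, *Chat*, *Slc18a3*, *Slc17a8* and *Th*. They were chosen by gene name for their known roles, with earlier results of these data known, out of 54532 genes counted. All 8 passed the filter on low counts that left 17998 genes for testing.

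RNA was sequenced from 4 retinal samples of *Mettl3*-CKO mice (Six3-Cre+; Mettl3 floxed/floxed) and from 4 retinal samples of littermate control mice. The labels give the age in both groups as postnatal day 7, the methods place the collection a day earlier, and the alleles carried by the controls are not given in the sources used here. *Six3-Cre* acts in retinal progenitors, deletion was described by the study for the central retina, and the whole retina was sequenced, so cells outside the deleted zone contribute RNA. Nothing says how many animals went into a sample, so p-values measure the spread between samples, which may in part be technical.

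Most amacrine cells release either GABA or glycine. GABA is made from glutamate by the glutamate decarboxylases GAD67 (*Gad1*) and GAD65 (*Gad2*), and both GABA and glycine are loaded into vesicles by the transporter VGAT (*Slc32a1*). Glycinergic amacrine cells take up glycine through GlyT1 (*Slc6a9*), starburst amacrine cells make acetylcholine with *Chat* and load it with VAChT (*Slc18a3*), a small subtype carries the vesicular glutamate transporter VGLUT3 (*Slc17a8*), and dopaminergic amacrine cells make their transmitter through tyrosine hydroxylase (*Th*). Horizontal cells also use GABA, so *Gad1*, *Gad2* and *Slc32a1* are not limited to amacrine cells.

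METTL3 is the catalytic subunit of the complex that writes N6-methyladenosine (m6A), and GGACT is one of the most used forms of its target sequence in DNA letters, with the methylated base being the A. The longest protein-coding GENCODE vM21 transcript of each gene was therefore searched for GGACT on the sense strand. *Slc6a9* held 7 matches (2.01 per kb) and *Th* 4 (2.05 per kb), against a median of 3 matches and 1.05 per kb over the transcripts of 14285 tested protein-coding genes. *Gad2* held 3 (0.522 per kb), *Slc32a1* 2 (0.715 per kb), *Chat* 2 (0.700 per kb), *Gad1* 1 (0.298 per kb), *Slc17a8* 1 (0.224 per kb) and *Slc18a3* 0. At least 1 match within 400 bases of the last coding base was present in 59.1% of those transcripts and in *Gad2*, *Slc32a1*, *Slc6a9* and *Slc17a8*. The match nearest to the stop codon is printed below for each gene that has one, 5′ to 3′ in the sense direction, with 10 bases on each side and GGACT in capitals. They are shown because METTL3 was the deleted gene and m6A is concentrated near stop codons; a match is a description of letters, not a measured m6A site.
*Gad1*: ctggggtggtGGACTgctcatgtcc
*Gad2*: agagcaaaggGGACTactgggtttg
*Slc32a1*: ccaacgcagaGGACTagggggtggg
*Slc6a9*: gccgcttccaGGACTcccggatatg
*Chat*: ccaccaaccgGGACTccctggacat
*Slc17a8*: gggaaaaacaGGACTgggctgaccc
*Th*: ccaggacattGGACTtgcatctctg
Counted from the last coding base to the first G of the match, the positions were -3 in *Slc32a1*, -12 in *Slc6a9*, -243 in *Slc17a8*, -367 in *Gad2*, -437 in *Th*, -647 in *Gad1* and -1131 in *Chat*, all within the coding sequence. The *Slc32a1* match runs into the stop codon itself.

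Total counts ranged from 16227095 to 20281517 per sample, so that 3 counts corresponded to 0.148 to 0.185 CPM, the count relative to the sample total. The CPM values that follow are scaled by edgeR's TMM method, SD is the standard deviation, and n = 4 in each group throughout. *Mettl3* itself was at 31.2 ± 2.24 CPM in controls and 24.1 ± 3.97 CPM in *Mettl3*-CKO retinas (log2 fold change -0.38, adjusted p = 0.0602 in edgeR and 0.0320 in DESeq2), with *Mettl3*-CKO sample 2 at 29.6 CPM, above controls 3 and 4. This is a count over the whole gene that includes exons outside a deleted segment. Markers of other cells moved between the groups: of 10 rod markers 6 were lower (summed level 2948 to 4586 CPM in controls and 1580 to 2853 in *Mettl3*-CKO samples), and of 8 markers of dividing progenitors 2 were higher (1304 to 1628 and 1722 to 2327 CPM). The largest contribution to the progenitor sum was *Mki67*, at 459 ± 46.5 CPM in controls and 905 ± 150 CPM in *Mettl3*-CKO samples. Of the 10 lens markers 7 were tested and 4 were lower (0 by DESeq2 and 0 by voom), their summed level being 3494 CPM in control 4, 4.71 to 65.3 CPM in the other controls and 5.38 to 18.1 CPM in *Mettl3*-CKO samples. Of the markers tested for other cells, 6 of 8 vascular, 3 of 5 pigment epithelium, 2 of 7 cone, 1 of 4 bipolar and 1 of 6 Müller glial markers were lower, while 1 of 10 ganglion cell, 1 of 6 Müller glial and 0 of 8 microglial markers were higher (for microglia 1 at an unadjusted p under 0.05, 0 by DESeq2 and 6 by voom). None of the markers listed for any cell type was at 0 in all samples.

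Of the 8 transmitter genes, 1 fell and 0 rose in *Mettl3*-CKO retinas (adjusted p under 0.05 in edgeR's quasi-likelihood test, Benjamini-Hochberg over all tested genes). The gene that fell was *Slc6a9*, the glycine transporter. The share of all tested genes called was 10.5% in either direction, 4.05% lower and 6.49% higher, and the 1 lower call of 8 rests on a single gene and says nothing of the 8 as a set. At an unadjusted p under 0.05, 2 of the 8 were lower and 0 higher, and DESeq2 and voom (limma) each called those counts, 2 lower and 0 higher, at an adjusted p under 0.05. *Slc6a9* was also the 1 gene of the 8 whose *Mettl3*-CKO and control values did not overlap, a property of 17.4% of all tested genes. The median log2 fold change was -0.22 over the 8 genes and -0.01 over all tested genes. In whole-retina RNA, fewer cells of a type and less RNA per cell cannot be told apart.

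**Figure D1:**
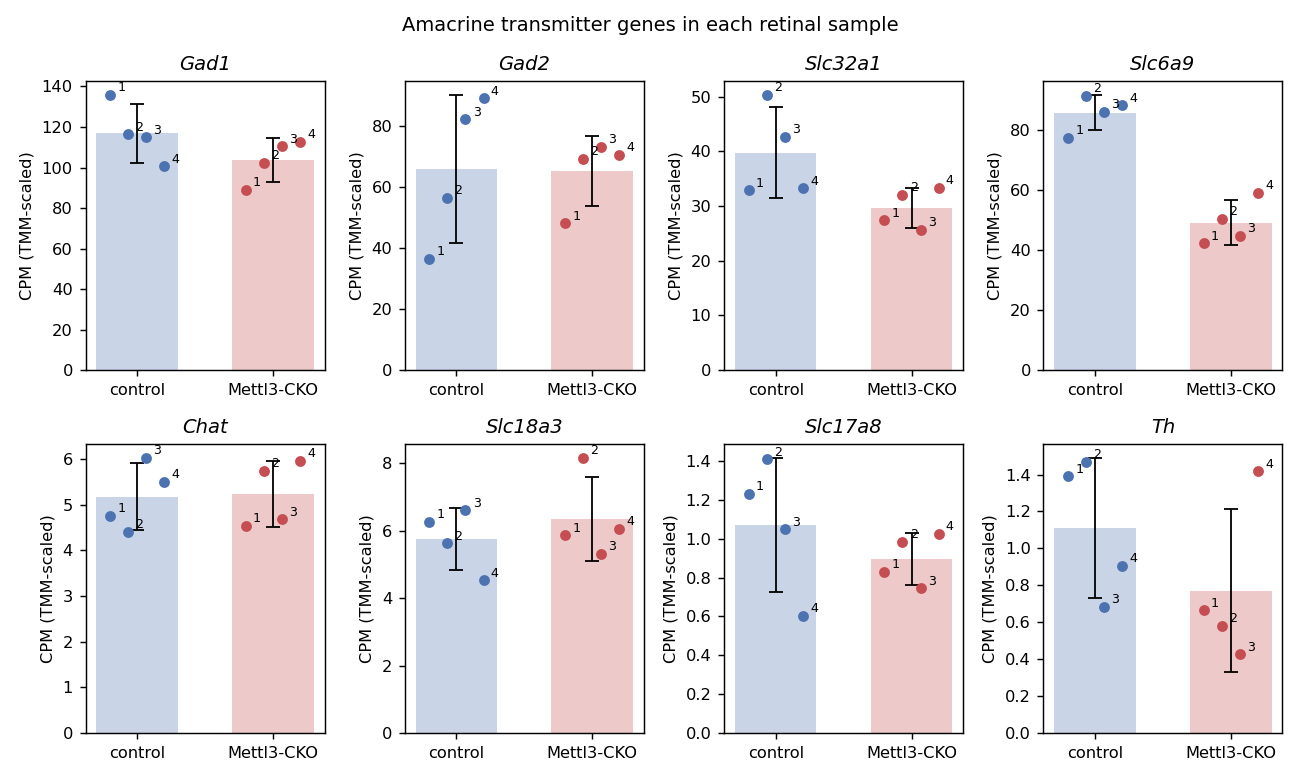
Level of each of the 8 transmitter genes (y axis, TMM-scaled CPM from 0, a separate scale per gene) in the 4 control (blue) and 4 Mettl3-CKO (red) retinal samples; points are samples with their replicate number, bars are means and whiskers are 1 SD. The groups part only for Slc6a9, where the 4 Mettl3-CKO samples sit between 42.3 and 59.0 CPM and the 4 controls between 77.5 and 91.3 CPM.

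The glycine transporter gene *Slc6a9* (ENSMUSG00000028542) maps to the plus strand of chromosome 4 (GRCm38, 117834506 to 117875198). It was at 77.5, 91.3, 86.0 and 88.2 CPM in controls 1 to 4 and at 42.3, 50.4, 44.7 and 59.0 CPM in *Mettl3*-CKO samples 1 to 4. Every *Mettl3*-CKO sample was below every control, and the controls lay close together. The means were 85.8 ± 5.93 CPM in controls and 49.1 ± 7.43 CPM in *Mettl3*-CKO retinas, a log2 fold change of -0.80 (standard error 0.11, 95% interval -1.04 to -0.56, adjusted p = 0.00104 from edgeR). That corresponds to 0.573 times the control level. The exact permutation test of log2 CPM gave p = 0.0286, the smallest that 4 samples against 4 allow. The call was kept in all 15 alternative fits, with log2 fold changes from -0.90 to -0.73 and adjusted p between 1.97e-09 and 0.00833, among them those that left out control 4 or controls 1 and 4 together.

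In the annotation, 1555 of the 5141 exonic bases of *Slc6a9* (30.2%) are shared with genes on the opposite strand, and whether the authors' counting used strand is not given in the sources used here. The largest overlap was with *Ccdc24*, at 1429 bases, which held 34 to 57 counts per sample against 765 to 1640 for *Slc6a9* (log2 fold change of *Ccdc24* -0.24, adjusted p = 0.534 from edgeR). *Gm17114* shared 511 bases and had 0 counts in every sample. *B4galt2*, a galactosyltransferase gene with 46 shared bases, was higher in *Mettl3*-CKO retinas (74.8 ± 2.09 against 108 ± 10.9 CPM, log2 fold change 0.53, standard error 0.09, adjusted p = 0.00355 from edgeR), the opposite direction to *Slc6a9*.

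Another gene of glycine transport, *Slc6a5*, encodes the transporter GlyT2, and was picked for mention after its values had been seen. It was at 8.19, 9.74, 9.76 and 9.91 CPM in controls 1 to 4 and 4.26, 8.35, 8.02 and 8.75 CPM in *Mettl3*-CKO samples 1 to 4. *Mettl3*-CKO samples 1 and 3 were below every control and samples 2 and 4 were above the lowest control (log2 fold change -0.35, 95% interval -0.78 to 0.07, adjusted p = 0.297 from edgeR). Over the list of 7 other genes of glycine transport, synthesis and cleavage, 1 was higher and 0 were lower, with a median log2 fold change of -0.14. At an unadjusted p under 0.05, 1 was higher and 1 lower; DESeq2 called 1 higher and 1 lower, and voom 2 higher and 2 lower. The lower gene in each of these was *Gldc*, glycine decarboxylase of the cleavage system, at 226 ± 30.0 and 177 ± 20.9 CPM (log2 fold change -0.35, adjusted p = 0.0637 from edgeR), and voom added *Shmt2* as lower and *Gcsh* as higher, all named after their values were seen. The gene that rose in edgeR was *Shmt1*, the cytosolic serine hydroxymethyltransferase, which interconverts serine and glycine. *Shmt1* went from 18.3 ± 1.06 to 26.2 ± 2.96 CPM (log2 fold change 0.52, standard error 0.11, adjusted p = 0.0102 from edgeR), and the call was kept whichever 1 of the 8 samples was left out.

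The vesicular inhibitory transporter gene *Slc32a1* (ENSMUSG00000037771; chromosome 2 from 158610767 to 158615748, plus strand) serves GABA and glycine neurons alike. It was at 32.9, 50.3, 42.6 and 33.2 CPM in controls 1 to 4 and at 27.4, 32.1, 25.7 and 33.4 CPM in *Mettl3*-CKO samples 1 to 4. Controls 2 and 3 were above every *Mettl3*-CKO sample, while controls 1 and 4 overlapped them. The means were 39.8 ± 8.36 and 29.6 ± 3.67 CPM, with a log2 fold change of -0.42 (standard error 0.14, 95% interval -0.73 to -0.12) that did not pass the adjustment over all genes (p = 0.0105, adjusted p = 0.0761 from edgeR; exact permutation test p = 0.0857). The call depended on the setting. DESeq2 gave an adjusted p of 0.0395, voom with sample quality weights 0.00988 and edgeR without the filter on low counts 0.0270. Leaving out control 1 gave -0.50 with an adjusted p of 0.0142, and leaving out controls 1 and 4 together gave -0.65 with an adjusted p of 0.00552, both from edgeR. In the other direction, it was -0.29 without control 2 (adjusted p = 0.236), -0.36 without *Mettl3*-CKO sample 3 (adjusted p = 0.209) and -0.38 without *Mettl3*-CKO sample 1 (adjusted p = 0.230), again from edgeR. Of its 2797 exonic bases, 697 (24.9%) are shared with the antisense gene *Gm14205*, which held 2 to 10 counts per sample.

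The ratio of *Slc6a9* to *Slc32a1*, taken per length as FPKM (counts per kilobase of gene length, scaled to the library total), was 1.28, 0.987, 1.10 and 1.44 in controls 1 to 4. In *Mettl3*-CKO samples 1 to 4 it was 0.841, 0.855, 0.946 and 0.962. All control ratios were above all *Mettl3*-CKO ratios, with means of 1.20 ± 0.202 and 0.901 ± 0.0621, but this ratio contains the level of *Slc6a9* that differed and carries no test of its own.

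*Gad1* (ENSMUSG00000070880; chromosome 2 from 70553072 to 70602014, plus strand), which encodes the decarboxylase that makes most of the basal GABA pool, did not pass the test. It was at 136, 116, 115 and 101 CPM in controls 1 to 4 and at 88.9, 102, 110 and 113 CPM in *Mettl3*-CKO samples 1 to 4. Control 1 was high, *Mettl3*-CKO sample 1 was low and the other samples overlapped. The means were 117 ± 14.5 and 104 ± 10.8 CPM (log2 fold change -0.17, standard error 0.11, 95% interval -0.41 to 0.06, adjusted p = 0.350 from edgeR; exact permutation test p = 0.171). Without control 1 the log2 fold change was -0.094 and without *Mettl3*-CKO sample 1 it was -0.10.

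*Gad2* (ENSMUSG00000026787; chromosome 2 from 22622205 to 22693874, plus strand) encodes the decarboxylase of synaptic terminals. It was at 36.5, 56.5, 82.4 and 89.2 CPM in controls 1 to 4 and at 48.3, 69.5, 73.3 and 70.7 CPM in *Mettl3*-CKO samples 1 to 4. The control values spread widely and enclosed all *Mettl3*-CKO values, with a coefficient of variation of 36.7% against 12.4% for *Gad1* in the same controls. The means were 66.1 ± 24.3 and 65.4 ± 11.5 CPM (log2 fold change -0.02, standard error 0.23, 95% interval -0.51 to 0.48, adjusted p = 0.976 from edgeR; exact permutation test p = 0.857). A change of up to 0.703 or 1.39 times lies within that interval.

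The balance of the decarboxylases differed more between controls than between the groups. *Gad2* made up 25.9, 38.7, 48.2 and 53.6% of the summed FPKM of *Gad1* and *Gad2* in controls 1 to 4, and 41.4, 46.9, 46.3 and 44.9% in *Mettl3*-CKO samples 1 to 4. The means were 41.6 ± 12.1% and 44.9 ± 2.47%. These shares rest on the deposited gene lengths, 7639 bases for *Gad1* and 5876 for *Gad2*. The longest protein-coding transcripts have 3355 and 5744 bases, and a shorter length for *Gad1* would lower the *Gad2* share in every sample. Control 1, with the highest *Gad1* and the lowest *Gad2*, was also the control with the highest summed rod markers (4586 CPM), and control 4, at the other end, was the one with lens transcripts; their part in this spread was not tested. The sum of both decarboxylases was 26.4 ± 2.78 FPKM in controls and 24.7 ± 3.25 FPKM in *Mettl3*-CKO retinas, and the ratio of *Slc32a1* to that sum was 0.539 ± 0.130 and 0.434 ± 0.0648.

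**Figure D2:**
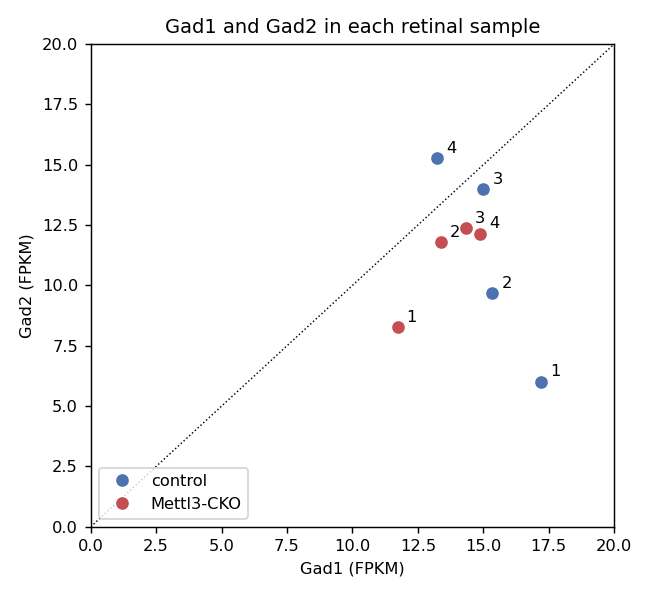
Level of Gad2 (y axis, FPKM) against Gad1 (x axis, FPKM) in each control (blue) and Mettl3-CKO (red) sample, numbered by replicate; the dotted line marks equal FPKM. Control 4 alone lies above the line, with Gad2 at 53.6% of the sum, and the controls range down to 25.9% in control 1, while the 4 Mettl3-CKO samples lie between 41.4 and 46.9%. The place of a sample relative to the line depends on the gene lengths used, 7639 bases for Gad1 and 5876 for Gad2.

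Among the 6 other genes of GABA uptake and breakdown, 0 were higher and 1 was lower, with a median log2 fold change of -0.15. The gene that fell was *Slc6a12*, the betaine and GABA transporter BGT1, at 2.19 ± 0.444 CPM in controls and 1.19 ± 0.130 CPM in *Mettl3*-CKO retinas (log2 fold change -0.87, standard error 0.25, adjusted p = 0.0432 from edgeR). This call rested on 19 to 48 counts per sample and was lost when any sample other than control 3 was left out. At an unadjusted p under 0.05, 0 genes of this list were higher and 2 lower. DESeq2 called 0 higher and 1 lower, and voom 0 higher and 2 lower. The added lower gene at an unadjusted p was *Slc6a11*, named after its values were seen, at 152 ± 21.6 and 123 ± 11.4 CPM (log2 fold change -0.30, adjusted p = 0.0970 from edgeR).

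Neither gene of the cholinergic pair passed the test. *Chat* (ENSMUSG00000021919; chromosome 14 from 32408203 to 32465989, minus strand) was at 4.76, 4.41, 6.03 and 5.50 CPM in controls 1 to 4 and at 4.53, 5.74, 4.67 and 5.96 CPM in *Mettl3*-CKO samples 1 to 4. The groups overlapped fully (log2 fold change 0.01, standard error 0.17, 95% interval -0.35 to 0.38, adjusted p = 0.972 from edgeR; exact permutation test p = 0.886). *Slc18a3* (ENSMUSG00000100241) lies inside the range of *Chat*, on the same strand from 32462438 to 32464850, as a gene of 1 exon that shares 0 exonic bases with *Chat* in the annotation. It was at 6.26, 5.63, 6.61 and 4.53 CPM in controls 1 to 4 and at 5.86, 8.18, 5.31 and 6.06 CPM in *Mettl3*-CKO samples 1 to 4. *Mettl3*-CKO sample 2 was the highest of the 8 and the others overlapped (log2 fold change 0.14, standard error 0.18, 95% interval -0.25 to 0.52, adjusted p = 0.697 from edgeR; exact permutation test p = 0.486). The ratio of *Slc18a3* to *Chat* in FPKM was 2.20 ± 0.437 in controls and 2.37 ± 0.348 in *Mettl3*-CKO retinas.

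Of the 5 other genes of choline uptake and acetylcholine breakdown 4 were tested, and edgeR called 0 higher and 0 lower (median log2 fold change -0.01). At an unadjusted p under 0.05, 1 was higher, and DESeq2 and voom each called 1 higher. This was *Bche*, butyrylcholinesterase, named after its values were seen, at 4.07 ± 1.06 and 6.76 ± 2.15 CPM (log2 fold change 0.73, adjusted p = 0.0695 from edgeR). The most abundant of them per length, *Ache*, which encodes acetylcholinesterase, was at 36.1 ± 1.98 and 35.4 ± 5.47 CPM (log2 fold change -0.03, 95% interval -0.26 to 0.21, adjusted p = 0.911 from edgeR). The 6 genes that mark starburst and AII amacrine cells gave 0 higher and 0 lower calls in edgeR and in DESeq2, with a median log2 fold change of 0.08; 1 was higher at an unadjusted p under 0.05. *Sox2*, the most abundant of these per length and a gene that progenitors and glia also express, was at 87.3 ± 13.0 and 117 ± 27.6 CPM (log2 fold change 0.43, adjusted p = 0.112 from edgeR). The 1 gene of this list that voom called, as lower, was *Prox1*, a transcription factor of AII amacrine and horizontal cells, at 141 ± 25.6 and 117 ± 15.1 CPM (log2 fold change -0.26, adjusted p = 0.246 from edgeR).

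*Slc17a8* and *Th*, the genes of the rarest subtypes, were near the lower end of what was tested. *Slc17a8* (ENSMUSG00000019935; chromosome 10 from 89574020 to 89621253, minus strand) had 10 to 23 counts in controls and 14 to 21 in *Mettl3*-CKO samples. Its level was 1.23, 1.41, 1.05 and 0.604 CPM in controls 1 to 4 and 0.829, 0.986, 0.744 and 1.03 CPM in *Mettl3*-CKO samples 1 to 4. The control values enclosed all *Mettl3*-CKO values (log2 fold change -0.26, standard error 0.32, 95% interval -0.95 to 0.43, adjusted p = 0.678 from edgeR; exact permutation test p = 0.457). The log2 fold change was -0.10 without control 2 and -0.45 without control 4, with no call.

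*Th* (ENSMUSG00000000214; chromosome 7 from 142892752 to 142931128, minus strand) had 13 to 26 counts in controls and 8 to 29 in *Mettl3*-CKO samples. Its level was 1.39, 1.47, 0.682 and 0.906 CPM in controls 1 to 4 and 0.664, 0.580, 0.425 and 1.42 CPM in *Mettl3*-CKO samples 1 to 4. The first 3 of the *Mettl3*-CKO samples lay below every control and *Mettl3*-CKO sample 4 lay among the highest values. The log2 fold change was -0.50 (standard error 0.41, 95% interval -1.39 to 0.38, adjusted p = 0.501 from edgeR; exact permutation test p = 0.2), and the ends of that interval correspond to 0.381 and 1.30 times the control level. With 1 sample left out the log2 fold change ranged from -0.99 without *Mettl3*-CKO sample 4 to -0.30 without *Mettl3*-CKO sample 3, with no call.

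Of the 11 other genes of dopamine synthesis, transport and breakdown 10 were tested, with 1 higher and 0 lower (median log2 fold change -0.09). At an unadjusted p under 0.05, 2 were higher and 1 lower, and DESeq2 and voom each called 2 higher and 0 lower. The added higher gene was *Slc18a2*, the vesicular monoamine transporter VMAT2, named after its values were seen, at 22.5 ± 1.75 and 27.8 ± 1.81 CPM with no overlap (log2 fold change 0.30, adjusted p = 0.0642 from edgeR). The gene that rose in edgeR was *Spr*, sepiapterin reductase, which completes the tetrahydrobiopterin cofactor that tyrosine hydroxylase needs and is expressed far beyond dopaminergic cells. *Spr* went from 23.6 ± 2.28 to 35.6 ± 4.86 CPM (log2 fold change 0.59, standard error 0.11, adjusted p = 0.00743 from edgeR), and the call was kept whichever 1 of the 8 samples was left out. Among 3 other genes of glutamate supply, 0 were higher and 1 was lower (median log2 fold change 0.02). This was *Slc17a7*, the vesicular transporter VGLUT1 of photoreceptors and bipolar cells, at 67.5 ± 14.1 and 44.3 ± 8.50 CPM (log2 fold change -0.61, adjusted p = 0.0280 from edgeR). The rod markers fell in the same samples, and their part in the change of *Slc17a7* was not tested. Its call was lost without *Mettl3*-CKO sample 1, 2 or 3, without control 2, or without controls 1 and 4 together.

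Co-transmitters of amacrine subtypes had the lowest median of the 6 pathway lists, -0.29 on the log2 scale, and of 8 such genes 6 were tested, with 0 higher and 2 lower. *Tac1*, the precursor of substance P, went from 15.6 ± 3.12 to 9.95 ± 1.54 CPM (log2 fold change -0.65, standard error 0.16, adjusted p = 0.0217 from edgeR). The *Tac1* call was lost without *Mettl3*-CKO sample 1 or 2. *Npy*, neuropeptide Y, went from 37.6 ± 14.4 to 22.7 ± 3.76 CPM (log2 fold change -0.73, standard error 0.21, adjusted p = 0.0431 from edgeR), with control 1 at 59.1 CPM and the other controls between 28.5 and 31.5 CPM. The *Npy* call was lost without any one of the *Mettl3*-CKO samples, control 2 or control 3, and without control 1 its log2 fold change was -0.42. At an unadjusted p under 0.05, 1 co-transmitter gene was higher and 3 were lower. DESeq2 called 0 higher and 2 lower, and voom 1 higher and 2 lower. The higher gene at an unadjusted p was *Penk*, at 2.35 ± 0.513 and 3.26 ± 0.325 CPM with no overlap (log2 fold change 0.47, adjusted p = 0.188 from edgeR). The third lower gene was *Crh* (log2 fold change -1.33, adjusted p = 0.0993 from edgeR), and both were named after their values were seen. Across all 40 pathway genes beside the 8, 36 were tested, 2 were higher and 4 lower, and the median log2 fold change was -0.11.

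The genes that mark amacrine cells as a class were measured beside the transmitter genes. Of 8 amacrine identity genes (*Pax6*, *Tfap2a*, *Tfap2b*, *Tfap2c*, *Ptf1a*, *Prdm13*, *Stx1a* and *Calb2*) 0 were higher and 1 was lower, with a median log2 fold change of -0.08. Their summed level was 1312 to 1616 CPM in controls and 1335 to 1719 CPM in *Mettl3*-CKO samples, so the groups overlapped; the largest contribution was *Pax6*, which progenitors also express, at 660 ± 64.9 and 735 ± 74.7 CPM. The summed level of the 8 transmitter genes was 296 to 340 CPM in controls and 219 to 290 CPM in *Mettl3*-CKO samples, without overlap; scaled by the totals alone it was 287 to 340 and 220 to 293 CPM, and the groups overlapped. Without *Slc6a9* the sums were 219 to 254 CPM and 176 to 231 CPM, and the groups overlapped. The identity gene that fell was *Prdm13*, a transcription factor of the amacrine lineage, at 69.7, 84.1, 87.8 and 92.8 CPM in controls 1 to 4 and 44.2, 63.5, 50.6 and 53.2 CPM in *Mettl3*-CKO samples 1 to 4. All *Mettl3*-CKO samples were below all controls (83.6 ± 9.95 and 52.9 ± 8.05 CPM, log2 fold change -0.66, standard error 0.12, adjusted p = 0.00567 from edgeR), and the call was kept whichever 1 of the 8 samples was left out.

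Horizontal cells are the other inhibitory interneurons of the retina and share the GABA genes. Of their 4 markers 1 was higher and 0 were lower (median log2 fold change 0.11). The marker that rose was *Onecut2*, a transcription factor that immature neurons and progenitors can also carry, at 60.0 ± 16.2 and 89.7 ± 4.08 CPM (log2 fold change 0.58, adjusted p = 0.0383 from edgeR). This call was kept without control 1 or without control 4, and lost when any other sample was left out. At an unadjusted p under 0.05, 1 horizontal marker was higher and 1 lower, and DESeq2 and voom each called 1 higher and 0 lower. The lower marker was *Calb1*, named after its values were seen, at 6.72 ± 2.42 and 4.59 ± 0.897 CPM (log2 fold change -0.55, adjusted p = 0.188 from edgeR).

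**Figure D3:**
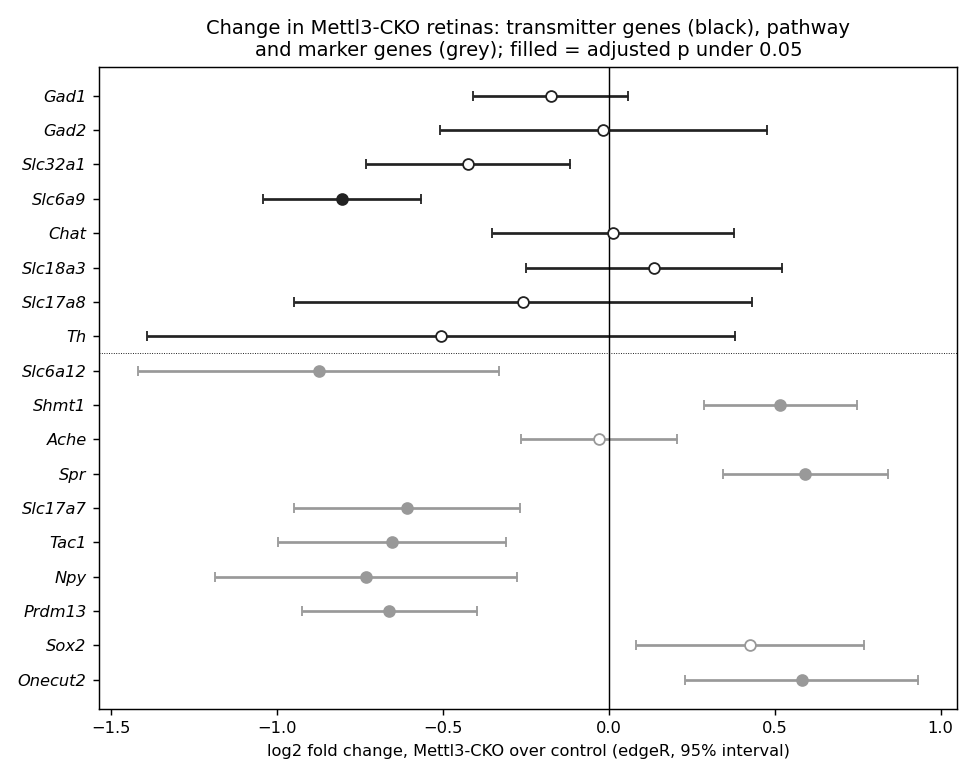
Log2 fold change of Mettl3-CKO over control (x axis, edgeR, whiskers are 95% intervals) for the 8 transmitter genes (black, above the dotted line) and for named pathway and marker genes (grey); filled points have an adjusted p under 0.05. Among the transmitter genes only Slc6a9, at -0.80, is filled, and the intervals of Slc17a8 and Th are the widest.

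Levels were compared between genes per length, here the deposited gene length, which for the 8 genes equals all their annotated exonic bases. Where the transcripts present are shorter than that, FPKM understates the level. The longest protein-coding transcript has 3355 of 7639 bases in *Gad1*, 3479 of 5141 in *Slc6a9* and 2858 of 4703 in *Chat*. In *Gad2* it has 5744 of 5876, so the order given here depends on the length used. In control retinas the mean FPKM was 16.6 ± 1.43 for *Slc6a9*, 15.2 ± 1.63 for *Gad1*, 14.2 ± 3.12 for *Slc32a1* and 11.2 ± 4.23 for *Gad2*. The ranges of neighbours overlapped in this group of GABA and glycine genes, and neighbours kept this order in only 2 or 3 of 4 controls. *Slc6a9* was above *Gad2* in 4 of 4. A gap followed, since *Gad2* was 4.74 times *Slc18a3*, at 2.37 ± 0.357 FPKM, with no overlap. *Chat* was next at 1.09 ± 0.160 FPKM, 2.17 times lower than its partner *Slc18a3* in mean FPKM and below it in 4 of 4 controls. In CPM, without length, *Chat* was at 5.18 ± 0.730 and *Slc18a3* at 5.76 ± 0.912 in controls. The part of gene length in this gap was not tested. *Th* was at 0.467 ± 0.157 FPKM and *Slc17a8* at 0.226 ± 0.0723 FPKM, with overlapping ranges. Within samples *Th* was above *Slc17a8* in 4 of 4 controls and in 4 of 4 *Mettl3*-CKO samples.

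In *Mettl3*-CKO retinas the same genes made up the upper and lower groups. Within the upper group *Gad1* was above each of *Gad2*, *Slc32a1* and *Slc6a9* in 4 of 4 samples. *Slc32a1* was above *Slc6a9* in 4 of 4, while *Gad2* was above each of *Slc32a1* and *Slc6a9* in 3 of 4. Mean FPKM was 13.6 ± 1.39 for *Gad1*, 11.1 ± 1.93 for *Gad2*, 10.6 ± 1.36 for *Slc32a1* and 9.57 ± 1.49 for *Slc6a9*, with overlapping ranges of neighbours. By FPKM with the deposited gene lengths, *Slc6a9* was above *Gad1* in 3 of 4 controls and below it in 4 of 4 *Mettl3*-CKO samples. The lower group was *Slc18a3* at 2.64 ± 0.518, *Chat* at 1.11 ± 0.158, *Th* at 0.328 ± 0.190 and *Slc17a8* at 0.190 ± 0.0289 FPKM, in the order seen in controls.

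**Figure D4:**
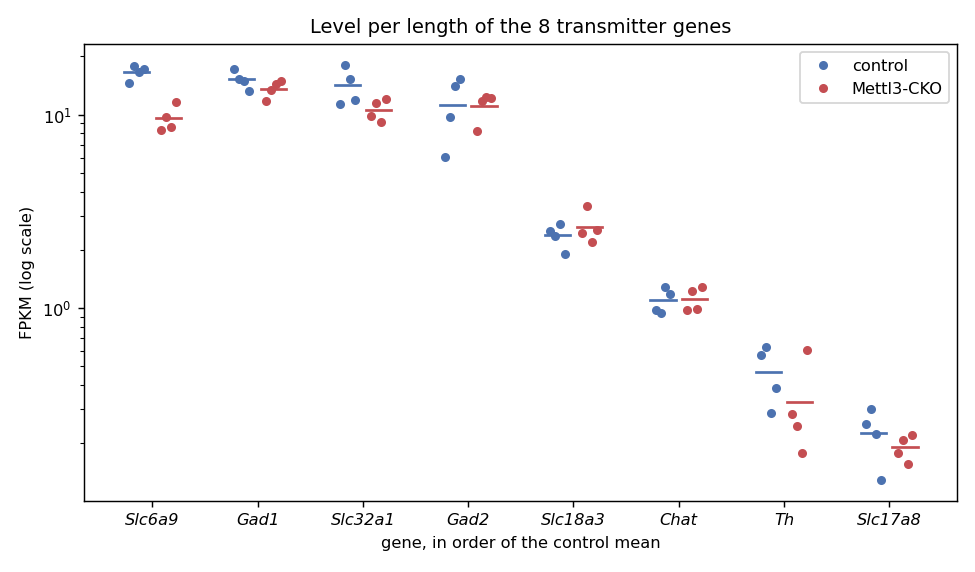
Level of the 8 transmitter genes per length (y axis, FPKM on a log scale) in control (blue) and Mettl3-CKO (red) samples, ordered by the control mean; points are samples and horizontal lines are group means. The 4 GABA and glycine genes lie well above the cholinergic, dopaminergic and VGLUT3 genes in both groups, and the mean of Slc6a9 is 16.6 FPKM in controls and 9.57 FPKM in Mettl3-CKO samples.

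As a description of likeness, log2 CPM of each transmitter gene was correlated over the 8 samples with every tested gene with a mean log2 CPM of 1 or more, and the closest pair is given for each. Each point is 1 sample, so all genes of a sample come from the same library and its depth, and many genes were searched for the closest ones. *Slc6a9* was most like *Flad1* (Pearson r = 0.995) and *2810402E24Rik* (r = 0.994), both of which were also lower in *Mettl3*-CKO retinas (log2 fold changes -0.37 and -0.66, adjusted p = 0.0176 and 0.00483 from edgeR). The group difference was left in these correlations, so genes this close to *Slc6a9* had to be lower too. *Slc32a1* was most like *Pigt* (0.965) and *Plppr2* (0.955), *Gad1* like *Spats2l* (0.974) and *Dlg2* (0.959), and *Gad2* like *Reps1* (0.975) and *Akap13* (0.973). *Chat* was most like *Gipr* (0.920) and *Gm7285* (0.911), *Slc18a3* like *Fgf13* (0.969) and *Trim46* (0.925), *Slc17a8* like *Atp9a* (0.968) and *Dkkl1* (0.951), and *Th* like *Enpp4* (0.962) and *Ace* (0.961). None of the 8 transmitter genes was among the closest pair of another, but *Slc17a8* and *Th* lay below the cut on level and could not be picked. After the group means were removed, *Slc32a1* and *Slc6a9* had r = 0.66 over the 8 samples, *Gad1* and *Gad2* -0.36, and *Chat* and *Slc18a3* 0.35.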

How the data were processed

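Per the methods, the authors filtered paired-end reads, aligned them by Hisat2 to GRCm38 (mm10) and assigned them to genes with featureCounts; the annotation release and use of strand are not given in the sources used here. The deposited values are raw counts per gene, with totals of 16227095 to 20281517 per sample, so rare transcripts carry the most counting error. Counts were filtered (filterByExpr), scaled by TMM and tested with edgeR 4.0.16 in R 4.3.3 (quasi-likelihood, Benjamini-Hochberg over 17998 genes, threshold 0.05). DESeq2 1.42.0, limma 3.58.1 (voom), other scalings, no filter, the replicate number as a term and samples left out were alternatives. Two-sided exact permutation tests used log2 CPM with a prior count of 2 over 70 assignments. FPKM was computed from the counts, deposited gene lengths and totals. The scripts were tested on simulated data. No pair of samples within a group was alike within sampling noise (lowest chi-square 5.47 per gene).

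The 8 genes and all lists were chosen with earlier results of these data known. Named beside the 8 were all called genes of the pathway, amacrine and horizontal lists, or the most abundant per length where none was called, and the closest pair by correlation. Added after their values were seen were *Slc6a5*, *Gldc*, *Shmt2*, *Gcsh*, *Slc18a2*, *Bche*, *Prox1*, *Pax6*, *Calb1*, *Penk*, *Crh*, *Slc6a11* and *Mki67*. Matching to GENCODE vM21 covered all 8 genes by identifier and coordinates.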

Additional observations from a re-analysis of the deposited data

Results flagged for a closer look

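*Gad2* was low in *Mettl3*-CKO sample 1, at 5.60 on the log2 CPM scale (873 counts), while the other *Mettl3*-CKO samples lay between 6.12 and 6.20. Its gap to the nearest sample, divided by the range of the 4 samples, exceeded Dixon's 95% critical value for 4 samples. It was the 1 such value among 24 groups of gene levels, shares and ratios tested, where chance gives 1.2. Leaving that sample out turned the log2 fold change of *Gad2* from -0.02 to 0.11, with no call in either case.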

How the results depend on the processing

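*Slc6a9* was called lower in each fit. Counting transmitter genes, 2 were called lower, the added one being *Slc32a1*, with DESeq2, voom with sample quality weights, no filter, or without controls 1 and 4 (1 to 2 genes over the fits leaving out 1 sample). Genes called higher over all tested numbered 1168, 2142 with voom, 439 at an adjusted p under 0.01 and 509 to 1882 with 1 sample left out, and genes called lower 729, 1568, 147 and 185 to 1289; both were lowest without *Mettl3*-CKO 1 and highest without control 1. Of the other pathway genes, 2 were higher (4 with DESeq2, 6 with voom, 2 to 6 with 1 sample left out, most without control 1) and 4 lower (7 with voom, 0 to 4 with 1 sample left out, 0 without *Mettl3*-CKO 1 or 2). Of the amacrine marker genes, 0 were higher (1 without the filter, 0 to 1 with 1 sample left out, 1 without *Mettl3*-CKO 4) and 1 lower (3 with voom, 1 to 2 with 1 sample left out, 2 without control 1), with a median log2 fold change of -0.04 (0.028 with voom, -0.080 to 0.042 with 1 sample left out). The sign was not stable for genes near 0: *Gad2* ranged from -0.22 to 0.16 with 1 sample left out, *Chat* from -0.056 to 0.10 (-0.017 with voom, -0.0041 without controls 1 and 4) and *Slc18a3* from -0.0046 to 0.22. From CPM the difference in the ratio of *Slc6a9* to *Slc32a1* was -0.55 instead of -0.30, and without length 4 genes changed rank in each group. The cause of these shifts was not tested.

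The groups share replicate numbers. Deviations of same-number samples from their group means correlated at r from -0.11 to 0.25, over 0.1 in 2 of 4 numbers. Of the 8 samples, 4 correlated best with their own number, and whether the number marks a pairing is not known. With the replicate number as a block *Gad2* was at 0.043 on the log2 scale, *Slc6a9* at -0.81 and *Slc32a1* at -0.41 (adjusted p = 0.00168 and 0.0729 from edgeR), and 1198 genes were called higher and 660 lower. The block lost the calls of *Npy* (adjusted p = 0.0774 from edgeR) and *Slc6a12* (0.0639). *Th* and *Slc17a8* had the fewest counts, 8 to 29 per sample; the part of depth in their spread was not tested.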
